A study of Mus musculus with 44 samples.

Results

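The comparison concerns 15 Dppa2/4+/- two-cell embryos that lacked maternal *Dppa2* and *Dppa4*, set against 14 Dppa2/4+/+ two-cell embryos, out of 44 single-embryo libraries in the series. The embryos were chosen by the mating given in their labels. Dppa2/4+/- embryos came from females whose conditional double allele had been deleted in growing oocytes by Zp3-Cre (Dppa2/4m- females), mated with wild-type males, so that each embryo inherited a deleted maternal and an intact paternal allele. Control embryos came from Dppa2/4+/+ females mated with wild-type males. Whether the control females carried Zp3-Cre is not given in the sources used here, and the animals were on a C57Bl/6 background. Each group comprised 2 litters from natural matings, of 7 and 8 embryos for Dppa2/4+/- and of 10 and 4 embryos for Dppa2/4+/+. No litter held both genotypes, so that the genotype of the mother, the litter and the genotype of the embryo cannot be told apart. The zona pellucida had been removed from every embryo, and polyadenylated RNA was amplified by Smart-seq2.

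Dppa2 and Dppa4 are small DNA-binding proteins of early embryos and embryonic stem cells, whose transcripts are present in oocytes. In embryonic stem cells they act upstream of the transcription factor Dux and of genes otherwise expressed at the two-cell stage, when the mouse embryo starts its own transcription and degrades the transcripts stored by the oocyte. The deleted stretch runs from the second exon of *Dppa4* to the seventh exon of *Dppa2* on chromosome 16, so the first exon of *Dppa4* is outside it.

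Depth differed between the groups. Total reads ranged from 637704 to 3163026 (median 1770010) in Dppa2/4+/+ embryos and from 247667 to 1830316 (median 528166) in Dppa2/4+/- embryos. Levels are log2 RPM (log2 of reads per 1e6 reads). Every value below 1.86, the value that a gene without reads took in the shallowest embryo, was set to 1.86, which is called the floor here and equals 3.63 RPM. With this floor the median number of genes above it was 9222 in Dppa2/4+/+ and 9328 in Dppa2/4+/- embryos. The share of reads from mitochondrial genes had a median of 15.3% in Dppa2/4+/+ embryos, 15.9% in the first Dppa2/4+/- litter and 9.44% in the second. A pair of Dppa2/4+/+ embryos stood apart by few genes above the floor for their depth: embryo 10 (litter 1) with 7133 and embryo 11 (litter 2) with 7332. All 4 embryos of the second Dppa2/4+/+ litter held transcripts of *Ovgp1*, the oviduct-specific glycoprotein, at 5.60 to 10.55 log2 RPM, whereas the gene stood at the floor in all 15 Dppa2/4+/- embryos.

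*Dppa2* and *Dppa4* were used to check the labels. *Dppa2* stood at 7.67 to 9.40 log2 RPM in the first Dppa2/4+/+ litter and at 7.84 to 8.63 in the second. In the Dppa2/4+/- embryos it ranged from 6.00 to 8.43 (median 7.18) in the first litter and from 5.33 to 6.42 (median 5.60) in the second. Every embryo of the second litter lay below every control embryo, and 13 of 15 Dppa2/4+/- embryos did so in all. The mean difference was -1.99 on the log2 scale (SE 0.28, adjusted p = 7.2e-05, limma with Benjamini-Hochberg adjustment over all genes tested).

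*Dppa4* stood at 6.33 to 7.58 log2 RPM in the first Dppa2/4+/+ litter and at 6.41 to 8.47 in the second. It ranged from 5.78 to 7.36 (median 6.20) in the first Dppa2/4+/- litter and from 3.40 to 5.73 (median 4.71) in the second. The first litter overlapped the control range and the second did not. The mean difference was -1.63 (SE 0.33, adjusted p = 0.0018, limma). Without the second Dppa2/4+/- litter the difference was -1.15 for *Dppa2* (adjusted p = 0.049, limma) and -0.67 for *Dppa4* (adjusted p = 0.15, limma). Both genes had reads in every embryo.

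**Figure D1:**
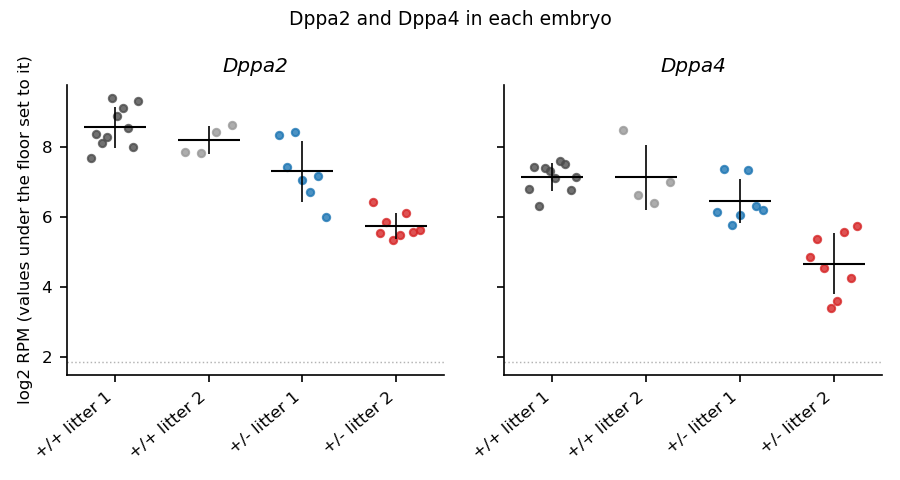
*Dppa2* and *Dppa4* in each embryo, in log2 RPM with values under the floor set to it, by group and litter; points are embryos, horizontal bars litter means and vertical bars 1 SD. For both genes the second Dppa2/4+/- litter (means 5.74 and 4.67) lay below every control embryo. The means of the first (7.30 and 6.46) lay between, and its embryos overlapped the control range.

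*Duxf3*, the gene of the Dux factor, was above the floor in too few embryos to be tested. It had reads in 2 of 14 Dppa2/4+/+ embryos (5 reads in all) and in 3 of 15 Dppa2/4+/- embryos (18 reads in all), which allows no comparison at this depth. Of 11 other annotated genes within 1 Mb of *Dppa2* and *Dppa4*, 3 were tested and none was called (limma), nor was any at an unadjusted p under 0.05. *Morc1*, a silencing factor of the male germline, differed by -0.01 (SE 0.35), *Dzip3* by -0.08 (SE 0.38) and *Cip2a* by -0.73 (SE 0.37, adjusted p = 0.20, limma). Without Dppa2/4+/+ embryos 10 and 11, which stood apart, *Cip2a* was called lower (-1.09, adjusted p = 0.011, limma).

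Of 10135 genes tested (above the floor in at least 10 of the 29 embryos), 546 were higher in Dppa2/4+/- embryos (5.39%) and 383 lower (3.78%), together 929 genes (9.17%). In 472 of the genes called higher and 291 of those called lower, both Dppa2/4+/- litter means lay beyond both Dppa2/4+/+ litter means. For 0 genes (0%) did every Dppa2/4+/- embryo lie above or below every Dppa2/4+/+ embryo. All calls were lost, leaving 0 in each direction, when litter entered as a random effect (723 genes with an unadjusted p under 0.05), with the 4 litter means as replicates (353 genes), with log2 total reads as a covariate (1127 genes) and among the 7 Dppa2/4+/- and 7 Dppa2/4+/+ embryos whose total reads lay in the range that the groups share (847 genes). All 929 genes kept the sign of their difference under the first 3 of these, and 928 did in the shared range. The difference of *Lmo1*, for example, was 2.64 with the random effect and 2.09 with the covariate, and that of *Uqcrb* -2.80 and -2.47. Other differences shrank more with the covariate, to -0.32 for *Smarca5*, 0.79 for *mt-Nd3*, 0.36 for *Dppa3* and -0.19 for *Atm*, against -0.83, 1.58, 0.71 and -1.09 as reported. With reads thinned to the total of the shallowest embryo, 404 genes were called higher and 302 lower. With 2 litters against 2, an exact permutation test cannot give a p below 0.33.

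Between the 2 Dppa2/4+/- litters 2885 genes were called (799 higher and 2086 lower in the second), and between the 2 Dppa2/4+/+ litters 90. Without the second Dppa2/4+/- litter, 43 genes were called higher and 17 lower than in controls. Without the first, 1225 were called higher and 1349 lower. Without the first Dppa2/4+/+ litter, 21 genes were called higher and 22 lower. Litters set against each other without shared embryos gave 27 calls (0.266%) for the first Dppa2/4+/- against the first Dppa2/4+/+ litter and 921 (9.09%) for the second against the second. With the litters crossed, the counts were 533 and 3076. Called in both matched comparisons were 3 genes in the same direction and 0 in opposite directions. These are 3 of the 27, beside 9.09% of all genes called in the second comparison. In both crossed comparisons 29 genes were called in the same direction and 138 in opposite directions. These came from the 533, beside 30.4% of all genes called in the other crossed comparison. No overlap was tested against the number that unrelated lists would share.

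**Figure D2:**
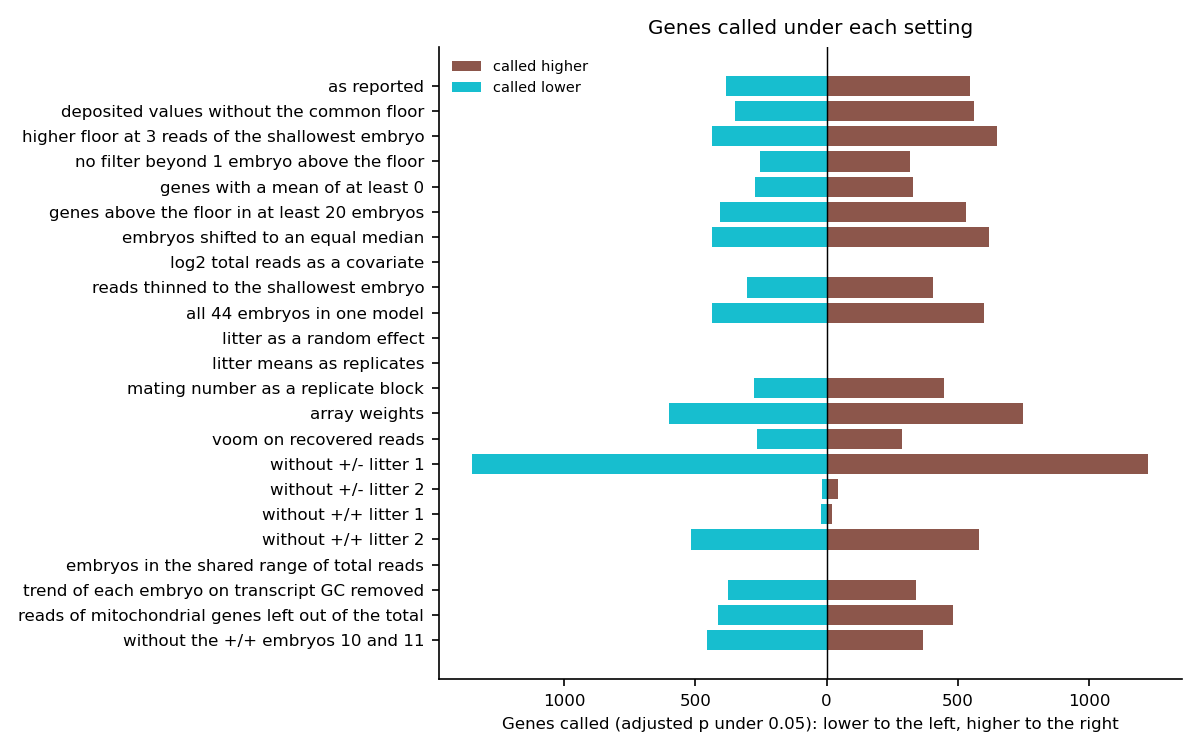
Number of genes called higher (right) and lower (left) in Dppa2/4+/- embryos under each treatment of the data. The counts are 546 and 383 as reported, 0 and 0 under the 4 treatments named in the text (litter as a random effect, litter means, total reads as a covariate, shared range of total reads), and 1225 and 1349 when the first Dppa2/4+/- litter is left out.

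The 3 genes called in both matched litter comparisons were *Dppa2*, *Lamp2* and *Ptges3*, the last pair named here after their values had been seen. They were picked by this overlap, so that their p-values below add no separate support for it. *Lamp2*, a lysosomal membrane protein, had a mean level of 9.08 ± 0.70 log2 RPM (SD, n = 14) among Dppa2/4+/+ and of 7.22 ± 0.88 (SD, n = 15) among Dppa2/4+/- embryos. It differed by -1.57 in the first pair of litters and by -1.91 in the second (adjusted p = 0.018 and 0.0018, limma). *Ptges3*, the p23 co-chaperone of Hsp90, stood at 9.55 ± 0.41 and 8.43 ± 0.38 log2 RPM, with differences of -1.10 and -1.02 (adjusted p = 0.012 and 0.013, limma). For *Ptges3* the litters of one genotype resembled each other, with means of 8.52 and 8.35 in Dppa2/4+/- and 9.62 and 9.37 in Dppa2/4+/+ embryos. None of the 3 was called in both crossed comparisons: for the first Dppa2/4+/- against the second Dppa2/4+/+ litter the adjusted p was 0.14 for *Dppa2*, 0.087 for *Lamp2* and 0.061 for *Ptges3* (limma).

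The genes with the largest increases whose litter means lay apart were *Lmo1*, *B9d1*, *Smco4*, *Ptov1*, *Ift43*, *H1foo*, *Fbxw4*, *Ciao2b* and *Tcl1b3*, with differences between 2.26 and 2.78. The largest decreases were in *Uqcrb*, *Zfp873*, *Zfp958*, *Gins3*, *Magt1*, *Gtf2h2*, *Rpl39* and *Dppa2*, with differences between -2.74 and -1.99. Both lists leave out predicted genes.

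The sequences upstream of the start sites of the first 2 genes of each list with an entry in RefSeq's promoter table (GRCm38.p6) are shown as examples. Each is the 250 bases before the start, 5′ to 3′ on the gene's strand, with every CG dinucleotide in capitals. The *Lmo1* stretch is at chr7:109175208-109175457 (reverse strand), the *B9d1* stretch at chr11:61504894-61505143, the *Zfp873* stretch at chr10:82047873-82048122 and the *Zfp958* stretch at chr8:4612920-4613169 (all forward).
Lmo1: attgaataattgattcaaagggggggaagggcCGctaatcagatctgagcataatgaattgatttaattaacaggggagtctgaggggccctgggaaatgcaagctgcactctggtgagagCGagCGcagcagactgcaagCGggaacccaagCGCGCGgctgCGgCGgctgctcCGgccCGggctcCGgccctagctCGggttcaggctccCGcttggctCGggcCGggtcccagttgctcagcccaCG
B9d1: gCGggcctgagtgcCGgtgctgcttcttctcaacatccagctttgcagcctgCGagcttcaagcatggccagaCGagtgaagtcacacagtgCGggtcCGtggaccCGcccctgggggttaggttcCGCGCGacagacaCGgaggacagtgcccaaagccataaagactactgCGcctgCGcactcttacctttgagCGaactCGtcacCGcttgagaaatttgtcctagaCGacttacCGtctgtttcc
Zfp873: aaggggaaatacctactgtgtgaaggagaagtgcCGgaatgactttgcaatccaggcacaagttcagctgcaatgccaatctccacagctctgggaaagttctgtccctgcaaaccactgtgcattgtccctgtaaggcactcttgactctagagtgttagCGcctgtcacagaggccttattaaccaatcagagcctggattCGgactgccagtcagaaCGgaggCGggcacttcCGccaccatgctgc
Zfp958: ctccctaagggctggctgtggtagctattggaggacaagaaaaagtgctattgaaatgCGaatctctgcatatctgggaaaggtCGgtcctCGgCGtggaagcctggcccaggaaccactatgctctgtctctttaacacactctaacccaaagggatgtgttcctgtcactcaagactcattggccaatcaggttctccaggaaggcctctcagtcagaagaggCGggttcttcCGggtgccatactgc
*Lmo1* and *B9d1* held 17 and 18 CG dinucleotides, and 23.6% and 21.6% of the stretches of all 27025 genes in the table held as many. *Zfp873* and *Zfp958*, both zinc finger genes, held 6 each, which 50.5% reached. Over all genes called, the contrast ran the other way: the median was 14.5 CG for the 424 genes called higher that had an entry, 19 for the 288 called lower and 17 for the 6948 not called. The median GC content of these stretches was 58.8%, 59.6% and 60% in the same order.

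*Lmo1*, a LIM-domain transcription cofactor, ranged from 1.86 to 5.91 log2 RPM (median 4.87) in the first Dppa2/4+/+ litter and from 3.49 to 5.99 in the second. It ranged from 4.39 to 7.40 (median 6.76) in the first Dppa2/4+/- litter and from 6.92 to 9.17 (median 8.80) in the second. Of 15 Dppa2/4+/- embryos, 12 lay above every control. The difference was 2.78 (SE 0.45, adjusted p = 0.00031, limma).

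*B9d1*, a protein of the ciliary transition zone, ranged from 1.86 to 4.96 and from 1.86 to 4.99 log2 RPM in the Dppa2/4+/+ litters, and from 3.78 to 6.50 and from 4.38 to 7.55 in the Dppa2/4+/- litters. Of 15 embryos, 11 exceeded all controls. The difference was 2.71 (SE 0.45, adjusted p = 0.00033, limma). *Ift43*, a subunit of the intraflagellar transport complex, likewise rose, by 2.58 (SE 0.43).

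*H1foo*, the linker histone of the oocyte, was detected at up to 4.46 log2 RPM in Dppa2/4+/+ embryos. It ranged from 2.86 to 5.88 (median 4.50) in the first Dppa2/4+/- litter and from 4.80 to 7.68 (median 6.71) in the second. All embryos of the second litter lay above all controls, whereas the first litter overlapped them. The difference was 2.52 (SE 0.47, adjusted p = 0.00086, limma).

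*Ptov1* was at or near the floor in most Dppa2/4+/+ embryos, with a median of 1.86 log2 RPM in the first litter and a highest value of 3.78 in the second. Its median was 4.84 in the first Dppa2/4+/- litter and 6.24 in the second, a difference of 2.60 (SE 0.44, adjusted p = 0.00034, limma). *Fbxw4*, an F-box protein, differed by 2.39 (SE 0.46) and the overlapping gene *Gm17018* on the opposite strand by 2.19 (SE 0.45). The latter is named only for this overlap. Reads were counted without regard to strand, so that these 2 genes cannot be told apart.

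*Uqcrb*, a subunit of respiratory complex III, had the largest decrease. It ranged from 3.71 to 7.75 and from 6.31 to 7.50 log2 RPM in the Dppa2/4+/+ litters. In the Dppa2/4+/- litters it ranged from 1.86 to 5.97 and from 1.86 to 4.54. The difference was -2.74 (SE 0.45, adjusted p = 0.00031, limma), and 8 of 15 Dppa2/4+/- embryos lay below every control.

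*Rpl39*, a protein of the large ribosomal subunit, fell by a difference of -2.11 (SE 0.36, adjusted p = 0.00034, limma), with 11 of 15 embryos below every control. *Zfp873* differed by -2.32 (SE 0.48) and *Gins3*, a subunit of the replicative helicase, by -2.30 (SE 0.43). For *Gins3* the second Dppa2/4+/- litter was near the floor (mean 1.94) and the first stood at 4.72, against 5.72 and 5.08 in the Dppa2/4+/+ litters. *Gtf2h2*, a subunit of general transcription factor TFIIH, differed by -2.18 (SE 0.42).

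**Figure D3:**
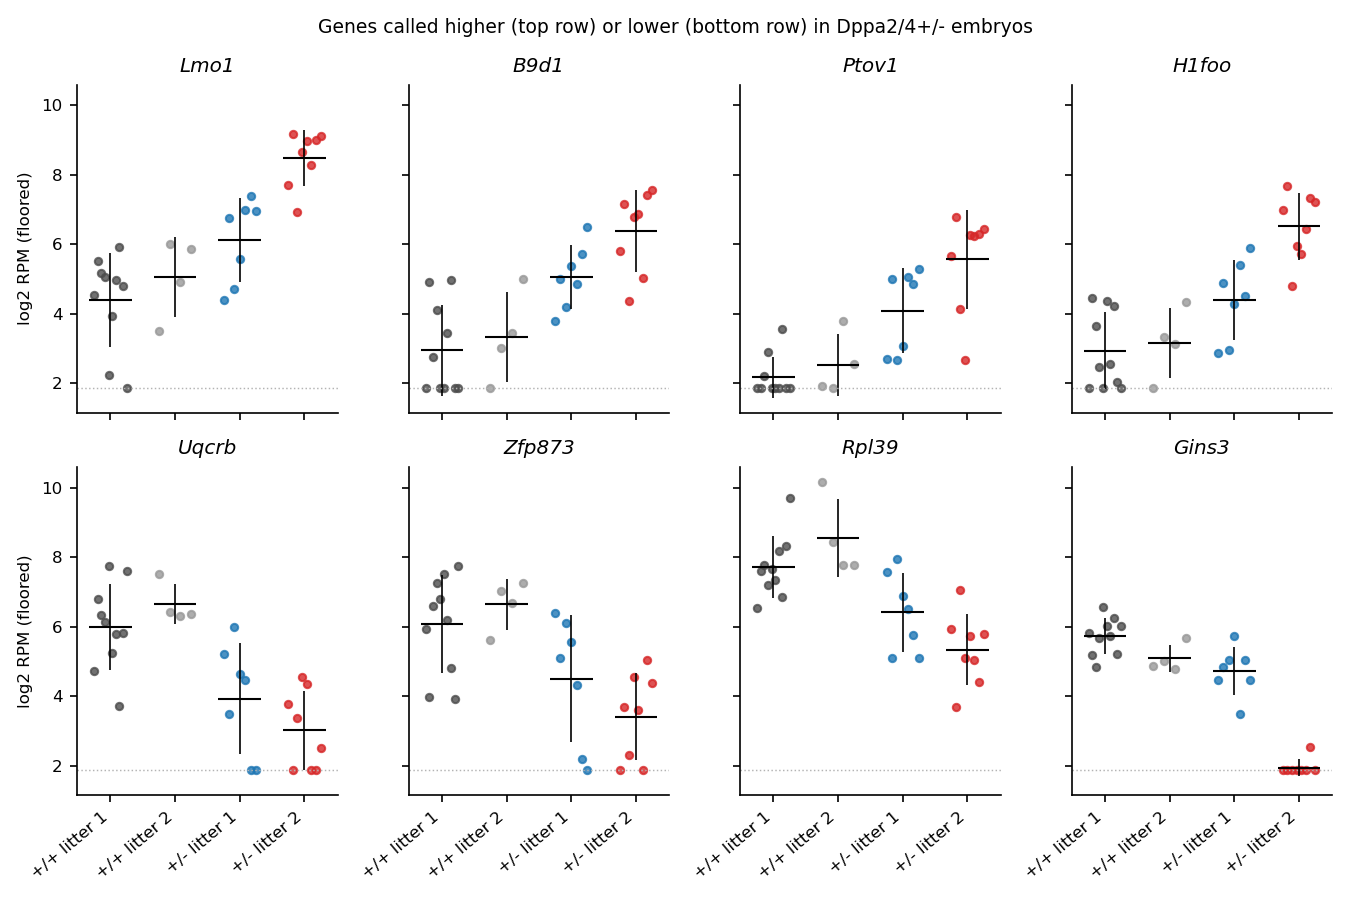
Log2 RPM in each embryo, with values under the floor set to it, for 4 genes called higher (top) and 4 called lower (bottom), by group and litter; bars are litter means and 1 SD, and the dotted line is the floor at 1.86. For every gene shown the second Dppa2/4+/- litter was further from the controls than the first.

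The gene classes were read against the whole: over all 10135 genes the median difference was 0.13, with the first Dppa2/4+/- litter at 0.27 and the second at -0.05 relative to the Dppa2/4+/+ mean. Classes are described by counts and medians, carry no test of their own, and are to be read against the 5.39% of all genes called higher and 3.78% called lower. The share called in either direction was near that of all genes (9.17%) for the oocyte Nlrp family (9.09%), the Klf factors (8.33%) and DNA replication (10.3%). For the kinases and germline genes described below, all of whose calls were higher, it was 5.88% and 6.67%. A single call gave 3.70% lower in mRNA storage and translational control and 3.33% lower in cyclins and cyclin-dependent kinases. In pluripotency and first-lineage factors a single call gave 5.26% higher. These 3 shares were near those of all genes in the same direction. The plot of class medians gives the 2 Dppa2/4+/- litters separately for each class, and in many classes they lay on opposite sides of the controls.

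Of 10 tested genes of the zona pellucida and oocyte-secreted factors, 3 rose and none fell, with a median difference of 1.13 (0.43 in the first litter and 1.19 in the second). Without the first Dppa2/4+/+ litter, which gives 10 of the 14 control embryos, the median was 0.40. They were *Oosp1* (1.26, SE 0.39), *Gdf9*, an oocyte growth factor (1.14, SE 0.37), and *Zp3*, a zona protein (1.14, SE 0.38). *Zp3* was higher in the first litter (mean 6.05 log2 RPM) than in the second (5.05), against 4.54 and 3.96 in controls. *Oosp1* was not higher in the first litter alone (difference without the second litter -0.18).

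Of 8 tested genes of the subcortical maternal complex, an assembly of oocyte proteins needed for early cleavage, 3 rose and none fell (median 0.71). The control litters differed by a median of 0.68, and the class median was 0.42 without the first of them and 0.43 without the second Dppa2/4+/- litter. These were *Tle6* (1.34, SE 0.40), *Zbed3* (1.26, SE 0.37) and *Ooep* (1.20, SE 0.35). The oocyte Nlrp family had 1 of 11 genes called higher, *Nlrp4a* (1.27, SE 0.42), with a class median of -0.22 in the first litter and 1.19 in the second. Of 10 genes in the list of oogenesins and Omt2 genes (class medians -0.01 in the first litter and 1.30 in the second), 3 rose. *Omt2b* (0.94, SE 0.29) was among them. The others, *E330034G19Rik* (1.93, SE 0.44) and *Oas1d* (1.60, SE 0.38), were listed with this class but do not carry its names. None of 12 genes of the oocyte Fbxw cluster (medians -0.36 and 0.66) was called (limma), with 1 gene, lower, at an unadjusted p under 0.05. Of the 12, *Fbxw24* had the highest level (difference 0.30, adjusted p = 0.38, limma).

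Among 27 tested factors of maternal mRNA decay 4 were called higher and none lower. *Btg4*, an adaptor of the deadenylase that clears maternal transcripts, stood at 7.84 and 8.36 log2 RPM in the Dppa2/4+/+ litters and at 8.22 and 10.7 in the Dppa2/4+/- litters (difference 1.58, SE 0.37). *Pan2*, a deadenylase subunit, and *Edc4*, a decapping factor, differed by 1.21 and 1.22. Neither was called with the trend on transcript GC content removed, as described further on (adjusted p = 0.092 and 0.14, limma). Without Dppa2/4+/+ embryos 10 and 11 neither was called either (adjusted p = 0.10 and 0.069, limma). Of 27 factors of mRNA storage and translational control, *Pum2* fell (-0.62, SE 0.18) and no gene rose (3.70% called, against 3.78% of all genes called lower). With the GC trend removed *Pum2* was not called (adjusted p = 0.081, limma), and this list had 1 gene higher and 0 lower. Of 34 meiotic and mitotic kinases and their regulators, 2 rose: *Aurkc*, an Aurora kinase of germ cells (1.87, SE 0.38), and *Gpr3*, a receptor that holds the oocyte in meiotic arrest (1.29, SE 0.40). *Gpr3* was not called with the GC trend removed (adjusted p = 0.071, limma) or without embryos 10 and 11 (adjusted p = 0.11, limma).

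Of 26 tested genes that mark the two-cell stage, 7 were called higher and none lower. The median difference of the 26 was 0.78, with -0.19 in the first Dppa2/4+/- litter and 1.46 in the second. *Tcstv1*, a two-cell stage transcript, stood at 2.93 in the first litter and at 7.17 in the second, against 2.56 and 3.58 in the controls (difference 2.34, SE 0.60, adjusted p = 0.011, limma). *Gm4340* and *Gm20767* differed by 1.97 and 1.93. Per embryo, the mean of the class after centring each gene lay between -1.12 and 0.33 in the controls, between -1.24 and 0.45 in the first litter and between 0.40 and 1.85 in the second.

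None of 7 tested genes of the Zscan4 family, two-cell stage factors that act on telomeres, was called (limma), though 4 were higher at an unadjusted p under 0.05. *Zscan4d* stood at 4.03 and 4.17 log2 RPM in the Dppa2/4+/+ litters and at 4.18 and 6.25 in the Dppa2/4+/- litters (difference 1.21, adjusted p = 0.088, limma). Without the first Dppa2/4+/- litter 5 of the 7 were called higher, and without the second none was. *Obox1*, an oocyte homeobox gene, was the 1 gene called of 7 in its family (1.78, SE 0.51), with litter means of 3.11 and 6.27 against 3.03 and 2.98. Of 9 Prame-like genes, 3 fell: *Pramel6* (-1.38), *Pramel4* (-1.14) and *Pramel7* (-1.13).

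Of 34 candidate factors of genome activation, 4 rose and 4 fell, and *Dppa2* and *Dppa4* themselves were among the latter. *Pou5f1*, the pluripotency factor Oct4, differed by 1.74 (SE 0.42) and *Dppa3*, which guards maternal DNA methylation, by 0.71 (SE 0.20). *Smarca5*, the ATPase of ISWI remodellers, fell, with both litter means below the controls ( 8.91 and 8.59 log2 RPM, against 9.68 and 9.30, difference -0.83, SE 0.19). *Klf8* was the 1 called of 12 Klf factors (-1.53, SE 0.51). With the GC trend removed it was not called (adjusted p = 0.068, limma), which left 0 calls in this class. *Pou5f1* was also the 1 gene called of 19 pluripotency and first-lineage factors.

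Chromatin genes were called in both directions. Of 34 Polycomb genes 3 rose and 3 fell, and of 21 H3K4 methyltransferase complex (COMPASS) and demethylase genes 2 rose and 1 fell. Of 33 heterochromatin and retroelement repressors 2 rose and 2 fell, and of 34 chromatin remodellers 5 rose and 1 fell. *Kmt2d*, an H3K4 methyltransferase, rose by 1.43 (SE 0.32) with nearly equal litter means (9.29 and 9.05 log2 RPM, against 7.79 and 7.58 in controls), whereas *Kdm5a*, an H3K4 demethylase, fell by a difference of -1.10 (SE 0.28). *Kdm6b*, an H3K27 demethylase, differed by 1.62, and *Arid1a* and *Gatad2a* of the BAF and NuRD remodellers by 0.88 and 1.14. With the GC trend removed *Arid1a* was not called (0.43, adjusted p = 0.16, limma). Of 19 genes of DNA methylation, 3 rose and none fell, with *Dnmt3l*, a cofactor of de novo methylation, at 1.60 (SE 0.42). *Morc3* (-1.39) and *Pcgf6* (-0.94), both chromatin repressors, were lower. Of 16 histone variants, linker histones and their chaperones, *H1foo* rose and *Nap1l1* (-0.88) and *Hat1* (-1.14) fell.

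**Figure D4:**
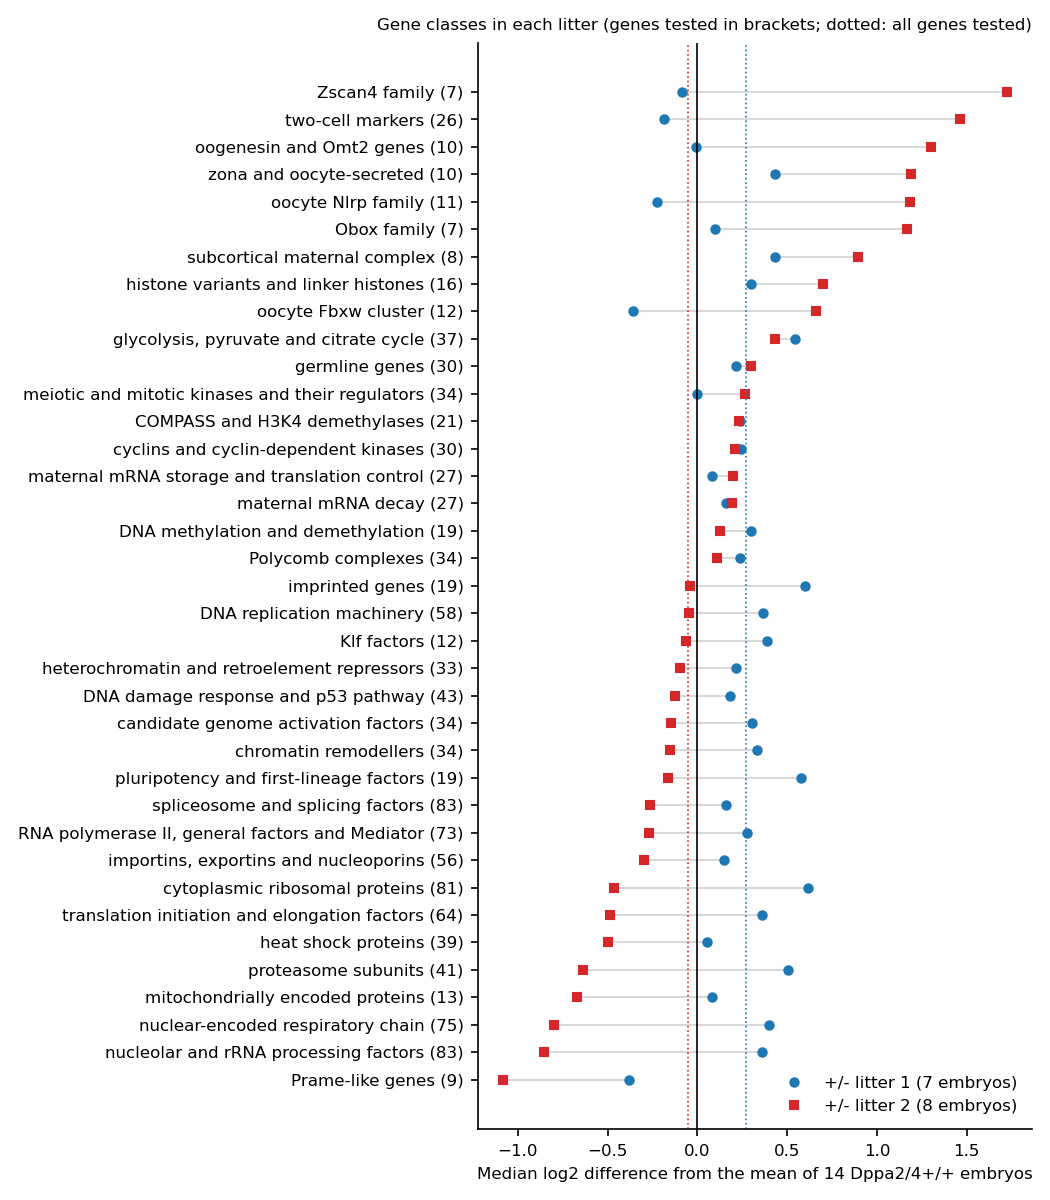
Median log2 difference of each gene class from the mean of the 14 Dppa2/4+/+ embryos, separately for the first (circles) and second (squares) Dppa2/4+/- litter, for classes with at least 7 tested genes; dotted lines give all genes tested (0.27 and -0.05). The Zscan4 family (-0.09 and 1.72) and the nucleolar factors (0.36 and -0.85) show the 2 litters on opposite sides.

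Of 83 nucleolar and rRNA processing factors, 15 fell and none rose, a median of -0.39 (0.36 in the first Dppa2/4+/- litter and -0.85 in the second). The control litters themselves lay apart by a median of -0.60 (second minus first), and without the first of them the class median turned to 0.13. *Wdr75* (-1.48, SE 0.31), *Ddx52* (-1.26, SE 0.27) and *Dkc1*, the pseudouridine synthase dyskerin (-1.12, SE 0.23), had the smallest adjusted p. Of 81 cytoplasmic ribosomal proteins, 10 fell and 2 rose, and the class median was 0.02, with 0.61 in the first litter and -0.47 in the second. *Rpl5*, a partner of the 5S ribosomal RNA, stood at 7.42 and 6.06 log2 RPM in the Dppa2/4+/- litters against 8.25 and 8.50 (difference -1.63, SE 0.29, adjusted p = 0.00054, limma). *Rpl30* fell too (-1.18, SE 0.26).

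Of 75 nuclear-encoded subunits of the respiratory chain, 10 fell and 1 rose, with medians of 0.40 and -0.80 in the 2 litters. Besides *Uqcrb*, the ATP synthase subunits *Atp5j* (-1.62, SE 0.31) and *Atp5f1* (-1.04, SE 0.21) were lower, and 13 of 15 embryos lay below every control for *Atp5j*. Of 13 mitochondrially encoded genes, *mt-Nd4* (-0.59) and *mt-Co1* (-0.65) were among 3 that fell. *mt-Nd3* alone rose (1.58, SE 0.31), with litter means of 6.82 and 6.59 against 5.30 and 4.69. Of 37 genes of glycolysis and the citrate cycle 4 rose and 1 fell, with a median of 0.40 (0.54 and 0.43 in the litters). The lactate dehydrogenases *Ldha* (2.14, SE 0.49) and *Ldhb* (1.73, SE 0.31) and the isomerase *Tpi1* (1.59, SE 0.40) rose.

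Translation factors showed 4 genes higher and 9 lower of 64 (medians 0.36 in the first litter and -0.48 in the second), with *Eif5*, which acts in start codon selection, lower in both litters (9.56 and 9.33 log2 RPM, against 10.6 and 10.3, difference -1.07, SE 0.19). Of 83 splicing factors (medians 0.16 and -0.26) 10 fell and 1 rose. *Hnrnpk* (-0.82) and *Hnrnpd* (-1.37) fell, while *Snrpg*, a small core protein of the spliceosome, rose (1.21). RNA polymerase II, its general factors and Mediator had 8 genes called in each direction of 73. The subunits *Polr2c* (1.65, SE 0.30) and *Polr2j* (1.52, SE 0.28) and the Mediator subunit *Med27* (1.69, SE 0.29) rose, with both litter means above the controls.

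Of 41 proteasome subunits 3 rose and 3 fell, with medians of 0.50 and -0.64 in the 2 litters. *Psmd9*, an assembly factor, rose (2.02, SE 0.40), and *Psma6* (-1.79) and *Psmd14* (-1.62) fell. *Psma6* stood at 6.94 in the first Dppa2/4+/- litter and at 4.04 in the second, against 7.29 and 6.90. Heat shock proteins and chaperonins had 6 genes lower and 2 higher of 39 (medians 0.06 and -0.50), with *Cct8* at -1.16 (SE 0.22) and 12 of 15 embryos below every control. Nuclear transport had 7 lower and 3 higher of 56 (medians 0.15 and -0.29), among them *Tpr*, a protein of the nuclear basket (-1.06), and *Xpo1*, the main export receptor (-1.25).

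In DNA replication 3 genes rose and 3 fell of 58, with *Dut* at 1.74 (SE 0.33) and *Orc2* at -0.85 (SE 0.23). Of 43 genes of the DNA damage response 2 rose and 1 fell (6.98%, against 9.17% of all genes). *Cdkn1a*, the cell cycle inhibitor p21, rose (1.45, SE 0.43) and *Atm*, the damage kinase, fell (-1.09, SE 0.36). With the GC trend removed neither was called (adjusted p = 0.060 and 0.072, limma), and *Cdkn1a* was not called without Dppa2/4+/+ embryos 10 and 11 either (adjusted p = 0.074, limma). *Ccnh* fell (-1.64, SE 0.50) and was the 1 gene called of 30 cyclins and cyclin-dependent kinases (3.33%, against 3.78% of all genes called lower). With the GC trend removed it was not called (adjusted p = 0.060, limma), which left 0 calls in this class. Germline genes gave 2 higher of 30, *Lhx8* (1.39) and *Tuba3b* (1.53). None of 19 imprinted genes was called (limma), with 4 higher and 1 lower at an unadjusted p under 0.05. *Ube3a* had the highest level among them (difference -0.56, adjusted p = 0.34, limma).

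The calls differed in the base composition of the transcripts. The median GC content of the longest annotated transcript was 52.5% for genes called higher, 42.9% for genes called lower and 48.4% for the rest. Among the 20% of genes with the lowest GC content 1.49% were called higher and 9.50% lower, and among the 20% with the highest 9.90% were called higher and 0.198% lower. Over all genes in each of 5 equal bins of GC content, the first Dppa2/4+/- litter had medians from -0.22 to 0.80 relative to Dppa2/4+/+ embryos. In the second litter the medians ran from -0.18 to 0.04. Calls by bin were not counted for each litter. With the trend of each embryo on GC content removed, 339 genes were higher and 376 lower (47.4% of calls higher, against 58.8% as reported), and 507 of the 929 genes were called in the same direction. Without Dppa2/4+/+ embryos 10 and 11 the counts were 367 and 457 (44.5% higher).

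Calls in many classes changed under these 2 alternatives. With the GC trend removed, the mitochondrially encoded genes went from 3 lower to 0 (adjusted p = 0.25 for *mt-Nd4* and 0.20 for *mt-Co1*, limma), mRNA decay from 4 higher to 1, splicing factors from 10 lower to 5, translation factors from 4 higher to 1 and chromatin remodellers from 5 higher to 1. Without the 2 embryos the germline genes, the oocyte Nlrp family and the Obox family had 0 calls (adjusted p = 0.071 for *Lhx8*, 0.075 for *Tuba3b*, 0.089 for *Nlrp4a* and 0.051 for *Obox1*, limma). Of the 103 called genes that the naming rule chose, 22 were not called with the GC trend removed and 13 without the 2 embryos. The nucleolar factors had 13 genes lower with the GC trend removed and 16 without the 2 embryos, and the respiratory chain 11 and 8. The two-cell markers had 5 and 4 genes higher, and the subcortical maternal complex 1 and 2. With the GC trend removed *Zp3* was not called (difference 0.69, adjusted p = 0.14, limma), nor was *Gdf9* (0.77, adjusted p = 0.17), whereas *Lmo1* (2.37, adjusted p = 0.0022) and *Uqcrb* (-2.47, adjusted p = 0.0010) were. What part GC content, depth or the mitochondrial share had in these differences was not tested.

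**Figure D5:**
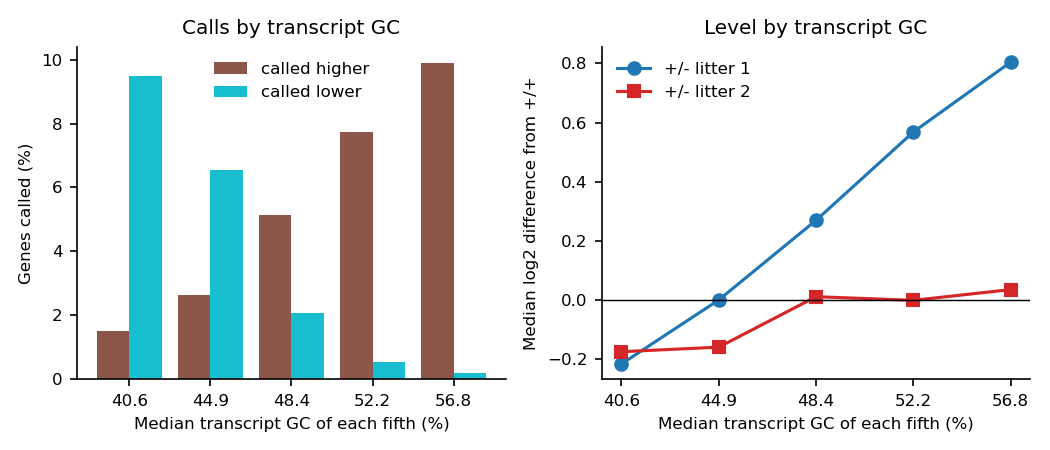
Left, the percentage of genes called higher and lower in Dppa2/4+/- embryos in each of 5 equal bins of transcript GC content; right, the median log2 difference of each litter from Dppa2/4+/+ embryos in the same bins. Calls rose from 1.49% to 9.90% (higher) and fell from 9.50% to 0.198% (lower) with GC content, and the first litter's median rose from -0.22 to 0.80.

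Markers of other cells that could have been carried along differed in level by list. Of 19 cumulus and granulosa cell markers, 7 had no reads in any of the 29 embryos and 2 were tested, of which *Amhr2* had the highest level (difference -0.22, adjusted p = 0.79, limma, and 0.61 without the second Dppa2/4+/- litter). The other, *Kitl*, differed in the opposite direction, and neither had an unadjusted p under 0.05. The summed level of the 19 was 17.9 to 95.5 RPM in Dppa2/4+/+ and 6.35 to 102 RPM in Dppa2/4+/- embryos. Of 12 sperm markers 5 had no reads, including the transition proteins *Tnp1* and *Tnp2*. Their sum was 29.7 to 105 RPM (median 44.2) in Dppa2/4+/+ and 29.9 to 199 RPM (median 80.5) in Dppa2/4+/- embryos. Its median was 78.3 RPM in the first Dppa2/4+/- litter and 136 RPM in the second. The highest level among the tested ones was that of *Odf2*, a gene of sperm tails that also codes for a centrosomal protein (difference 1.18, adjusted p = 0.096, limma). The 10 blood cell markers summed to at most 9.37 and 11.1 RPM. The sum over 10 oviduct markers reached 1842 RPM in 1 Dppa2/4+/+ embryo and at most 169 RPM in Dppa2/4+/- embryos. *Ovgp1*, which was above the floor in too few embryos to be tested, stood at 10.55 log2 RPM in that embryo (embryo 11), at 5.60 to 7.72 in the other 3 of the second Dppa2/4+/+ litter and, in the first, at 5.94 in embryo 10, 4.00 in embryo 1 and 2.59 in embryo 4. The part of these transcripts in the results was not tested. *Epcam*, an epithelial adhesion protein that embryos also make, had the highest mean level of the 2 tested oviduct markers (difference -0.61, adjusted p = 0.15, limma). It was called lower with the GC trend removed (-0.99, adjusted p = 0.012, limma). The other, the cadherin *Cdh1*, named like *Kitl* after its values were seen, had medians of 8.31 RPM in Dppa2/4+/+ and 25.6 RPM in Dppa2/4+/- embryos. Both had an unadjusted p under 0.05. Without Dppa2/4+/+ embryos 10 and 11 *Cdh1* was called higher and *Epcam* was not called (-0.54, adjusted p = 0.23, limma).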

How the data were processed

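Single two-cell embryos were sequenced by Smart-seq2, and each embryo was 1 library. Per the labels' processing notes, reads were trimmed with Trim Galore 0.6.5 and cutadapt 2.3 and mapped to GRCm38 with HISAT2 2.1.0. The authors then quantified 35269 genes in SeqMonk without regard to strand and deposited log2 RPM values, in which a gene without reads holds the value of 0.9 read. Whole reads were recovered from these values (within 0.05 read), but PCR copies of 1 molecule cannot be told from separate molecules. Embryos were grouped by the mating in their labels. Values were raised to the floor of 1.86, and genes above it in at least 10 of 29 embryos were tested with limma 3.58.1 (lmFit, eBayes with trend, two-sided) in R 4.3.3, with Benjamini-Hochberg adjustment at 0.05. Nothing beyond separate embryos is labelled as a replicate, and p-values measure the spread between embryos, which share litters.

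The embryos, gene lists and tests were chosen with earlier results of these data known. Named genes were *Dppa2* and *Dppa4*, the 10 largest changes in each direction among genes called with litter means apart and above the floor in at least 20 embryos (predicted genes only among the first 5), up to 3 called members of each list by adjusted p or otherwise the member with the highest level, *Duxf3*, and neighbours within 1 Mb. Transcript GC came from the longest GENCODE transcript for 10099 of 10135 genes. Alternatives covered the floor, the filter, scaling, depth, litter, weights, limma voom and the embryos used. Embryos sired by Dppa2/4+/- males entered only the model of all 44 embryos. Figures were drawn with matplotlib.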

Additional observations from a re-analysis of the deposited data

Results flagged for a closer look

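The effect relative to Dppa2/4+/+ embryos differed between the 2 Dppa2/4+/- litters, which share their controls: 2885 of 10135 genes differed between the litters themselves (limma, adjusted p under 0.05).

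Within litters, 6 of 108 sets of values had an end value far from the nearest other embryo. The rule gives about 1 in 20 for normal values in separate sets. These sets share embryos and some hold values at the floor, so that rate is no measure of chance here. One embryo of the first Dppa2/4+/+ litter had 7133 genes above the floor, the next 8674. In the same litter *Fbxw4* was at the floor of 1.86 log2 RPM in 1 embryo and at least 3.63 in the others, and the mean level of the subcortical maternal complex, after centring each gene, was -2.17 in 1 embryo and at least -0.72 in the others. In the second Dppa2/4+/+ litter *Uqcrb* reached 7.50 in 1 embryo, the next being 6.43. In the first Dppa2/4+/- litter the mean level of the nuclear-encoded respiratory chain reached 1.13 in 1 embryo, the next being 0.51. In the second, *Gins3* was above the floor in 1 embryo, at 2.52, and at the floor in all others, where any value above it is flagged.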

How the results depend on the processing

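The counts of genes called were 546 higher and 383 lower, with 472 and 291 with litter means apart. All 4 counts were 0 with litter as a random effect, litter means as replicates, or log2 total reads as a covariate, and in the shared range of total reads. Without the first Dppa2/4+/- litter they were 1225, 1349, 1220 and 1345, and without the second 43, 17, 43 and 17. Without the first Dppa2/4+/+ litter they were 21, 22, 21 and 22, and without the second 510 genes were lower with litters apart. With no filter beyond 1 embryo above the floor, 316 were higher, 255 lower and 298 higher with litters apart. A filter on a mean log2 RPM of at least 0 gave 330 higher and 310 with litters apart, limma voom 286 and 273, and the GC trend removed 339 and 254. Array weights gave 600 lower, and leaving out Dppa2/4+/+ embryos 10 and 11 gave 308 higher with litters apart. Litters crossed gave 533 and 3076 calls in place of 27 and 921. The remaining counts were within 1.5 times of those reported.

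A replicate block on the mating number gave 447 higher and 275 lower calls (409 and 237 with litters apart). With it, 626 of the 929 genes were called in the same direction, and 21 of the called genes that the naming rule chose were not called. The number marks different animals in each cross, and the labels do not say whether matings of the same number shared a day. Across genes, the change from litter 1 to litter 2 had a Pearson r of 0.42 between the groups.

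Of the named genes that were called, 2 turned in sign: *Oosp1* without the second Dppa2/4+/- litter (-0.18) and *Atm* in the shared range of total reads (0.014). Of those named but not called, *Amhr2*, *Cip2a*, *Dzip3*, *Epcam*, *Fbxw24*, *Morc1* and *Ube3a* turned in sign under at least 1 alternative. Without the first Dppa2/4+/+ litter the class medians turned from -0.39 to 0.13 for nucleolar factors, -0.20 to 0.20 for proteasome subunits, -0.16 to 0.20 for translation factors, 0.67 to -0.13 for the Obox family, 0.27 to -0.31 for the Fbxw cluster and 0.19 to -0.15 for mRNA storage factors, among others. Leaving out 1 litter moved 13 of 43 class medians beyond the spread between embryos (second Dppa2/4+/- litter), 7 (first), 5 (first Dppa2/4+/+ litter) and 0 (second). The cause was not tested. The shared range of total reads, the GC trend, the mitochondrial reads left out of the total and the embryos 10 and 11 left out were chosen after seeing the data.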
